A study of Caenorhabditis elegans with 6 samples.

Results

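Transcripts of the NLP (neuropeptide-like protein) genes of the nematode Caenorhabditis elegans were compared between BAG neurons, BAG neurons of a pmk-3 mutant and other cells of the same kind of culture. The members were the genes whose first listed name was nlp followed by a number, 44 in all, and 2 genes listed by their sequence names, F14F11.2 and F02D8.5, which the current annotation calls nlp-55 and nlp-59. These 46 genes were taken by name from the 47063 gene rows of the table, and the list was chosen with earlier results of these data known. The current annotation gives nlp names to a further 29 genes that the table lists under other names, and these were not members. It also calls nlp-37 pdf-2, nlp-38 mihp-1 and nlp-42 mihp-2.

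Messenger RNA was sequenced in 6 libraries that form 3 groups of 2. Every group carried the integrated reporter wzIs113[Pgcy-9::GFP], in which the promoter of gcy-9, a receptor guanylate cyclase gene of BAG neurons, drives green fluorescent protein. Non-BAG cells were the non-fluorescent cells and wild-type BAG neurons the fluorescent cells of strain FQ424, which carries the reporter alone, and mutant BAG neurons were the fluorescent cells of strain FQ705, which carries the reporter with pmk-3(wz31). The pmk-3 gene encodes a p38 MAP kinase. No group received a treatment. Per the labels, embryos were dissociated and cultured overnight, fluorescent cells were sorted about a day after dissociation with dead cells left out, most sorted cells were fluorescent on inspection, and the reporter is independent of pmk-3. The neurons therefore differentiated in a dish, away from their normal neighbours, and the sources used here do not say what wz31 removes. Separate cultures for the paired libraries of a group are not mentioned by the labels, so the p-values reflect a spread between libraries that may be technical.

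Neuropeptides are made as precursor proteins that convertases cut at basic residues, after which a carboxypeptidase trims the fragments and many of them are amidated at the C terminus. They are stored in dense-core vesicles and released to act on G protein-coupled receptors, often on cells that share no synapse with the releasing cell. Nematodes have separate families for insulin-like peptides and for FMRFamide-related (FLP) peptides, and the NLP genes hold the remaining precursors, a mixed group that includes relatives of pigment dispersing factor, cholecystokinin and gonadotropin-releasing hormone as well as antimicrobial peptides of the epidermis. BAG neurons are a pair of head sensory neurons that respond to carbon dioxide and oxygen.

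The libraries held 6181113 to 8596169 reads in genes, and ribosomal RNA took 10.4% to 15% of the values. The labelled cell type was checked against its markers. All 13 BAG markers tested rose in wild-type BAG neurons against non-BAG cells and all 13 rose in mutant BAG neurons, with summed normalized read counts of 1755 and 1232 in non-BAG cells, 64711 and 62990 in the wild-type neurons and 67819 and 81279 in the mutant neurons (limma, Benjamini-Hochberg adjusted p under 0.05). The markers include gcy-9, whose promoter drove the reporter of the sort; without it all 12 rose in both comparisons, with sums of 1497 and 952 among non-BAG, 32606 and 24474 among wild-type BAG and 31922 and 36121 among mutant BAG libraries. The transcript of pmk-3 stood at 404 and 553 in the non-BAG cells, 671 and 585 in the wild-type neurons and 259.8 and 284 in the mutant neurons, so both mutant libraries lay under all 4 others. The pmk-3 transcript was still present in the mutant and therefore checks the genotype labels only in part.

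As a family the NLP transcripts were scarce in non-BAG cells, more abundant in wild-type BAG neurons and most abundant in mutant BAG neurons. Summed over the 46 genes, the normalized read counts reached 1434 and 1488 for non-BAG cells, 12651 and 9959 for wild-type BAG neurons and 25603 and 38502 for mutant BAG neurons. The 3 groups did not overlap. The mean was 1461 ± 38.7 in non-BAG cells, 11305 ± 1904 in wild-type BAG neurons and 32053 ± 9121 in mutant BAG neurons (SD, n = 2 each). Wild-type BAG neurons thus held 7.74 times the non-BAG sum and mutant BAG neurons 2.84 times the wild-type BAG sum. As a share of all normalized reads of a library, the family took 0.0214% and 0.0282% in non-BAG cells, 0.182% and 0.161% in the wild-type neurons and 0.371% and 0.519% in the mutant neurons. The sums were not tested, since 2 libraries against 2 cannot give a small exact p.

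**Figure D1:**
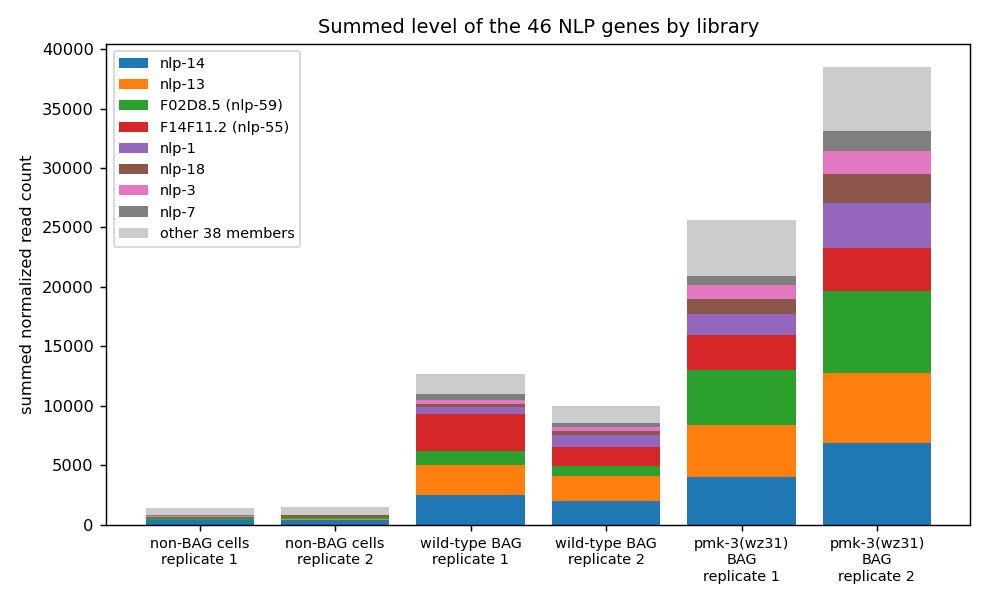
Summed normalized read count of the 46 NLP genes in each of the 6 libraries; coloured segments are the 8 genes with the highest summed values and light grey is the other 38 members. The wild-type BAG bars reach 12651 and 9959, the mutant BAG bars 25603 and 38502, and both non-BAG bars are far lower (1434 and 1488).

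The leading members differed between the groups. In non-BAG cells nlp-14, an orcokinin-like precursor, took 26.4% and 27.5% of the NLP total. In wild-type BAG neurons F14F11.2 took 24.2% and 16.6%, nlp-13 took 20.2% and 20.96% and nlp-14 took 19.5% and 20.1%. In mutant BAG neurons F02D8.5 led with 18.2% and 17.8%, up from 9.27% and 8.27% in wild-type BAG neurons, while F14F11.2 took 11.4% and 9.50%. The 5 leading members together made up 56.5% and 55.1% of the total in non-BAG cells, 78.5% and 75.6% in the wild-type neurons and 69.1% and 70.3% in the mutant neurons.

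Levels of different genes are compared here per kilobase of exon, with exon lengths from the current annotation, which may not be the one the counts were made with. In wild-type BAG neurons the mean normalized read count per kilobase was 4603 for F14F11.2, with 5983 and 3222 in the 2 libraries. The next level was 3109 for nlp-13, with 3425 and 2794, whose range overlaps that of F14F11.2, so these neighbours do not differ beyond their spread. Then came nlp-14 at 2185 (2414 and 1955), F02D8.5 at 1474 (1731 and 1217) and nlp-1 at 1148 (929 and 1368). The ranges of nlp-14 and F02D8.5 did not overlap, and those of F02D8.5 and nlp-1 did. In mutant BAG neurons the order was F02D8.5 at 8507 (6874 and 10141), nlp-13 at 6874 (5794 and 7954), F14F11.2 at 6429 (5714 and 7144), nlp-14 at 5306 (3935 and 6677) and nlp-1 at 3896 (2473 and 5319), and each of these overlapped the next. In non-BAG cells nlp-14 led at 385 (370.1 and 400.2), above F02D8.5 at 189.6 (202 and 178) with no overlap.

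The tests ran over 14211 genes with a normalized read count of at least 10 in at least 2 libraries. Of the 46 members, 32 entered them. The other 14, nlp-2, nlp-4, nlp-19, nlp-22, nlp-23, nlp-25, nlp-26, nlp-27, nlp-28, nlp-29, nlp-30, nlp-32, nlp-34 and nlp-39, had no more than 1 library at 10, with a highest value of 17.2 in nlp-29. This set holds all 3 RPamide genes, nlp-2, nlp-22 and nlp-23, the second of which is expressed in the RIA interneurons and promotes the sleep-like state of larvae. It also holds nlp-29, an epidermal antimicrobial gene induced by fungal infection and wounding. Among the tested members, 13 passed the filter only through BAG libraries, and 5 of these (nlp-5, nlp-10, nlp-12, nlp-33 and nlp-46) only through mutant libraries. The counts of nlp-21, nlp-35 and nlp-46 are uncertain because their exons share bases with Y47D3B.1, C33A12.19 and T28H10.1 on the other strand.

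**Figure D2:**
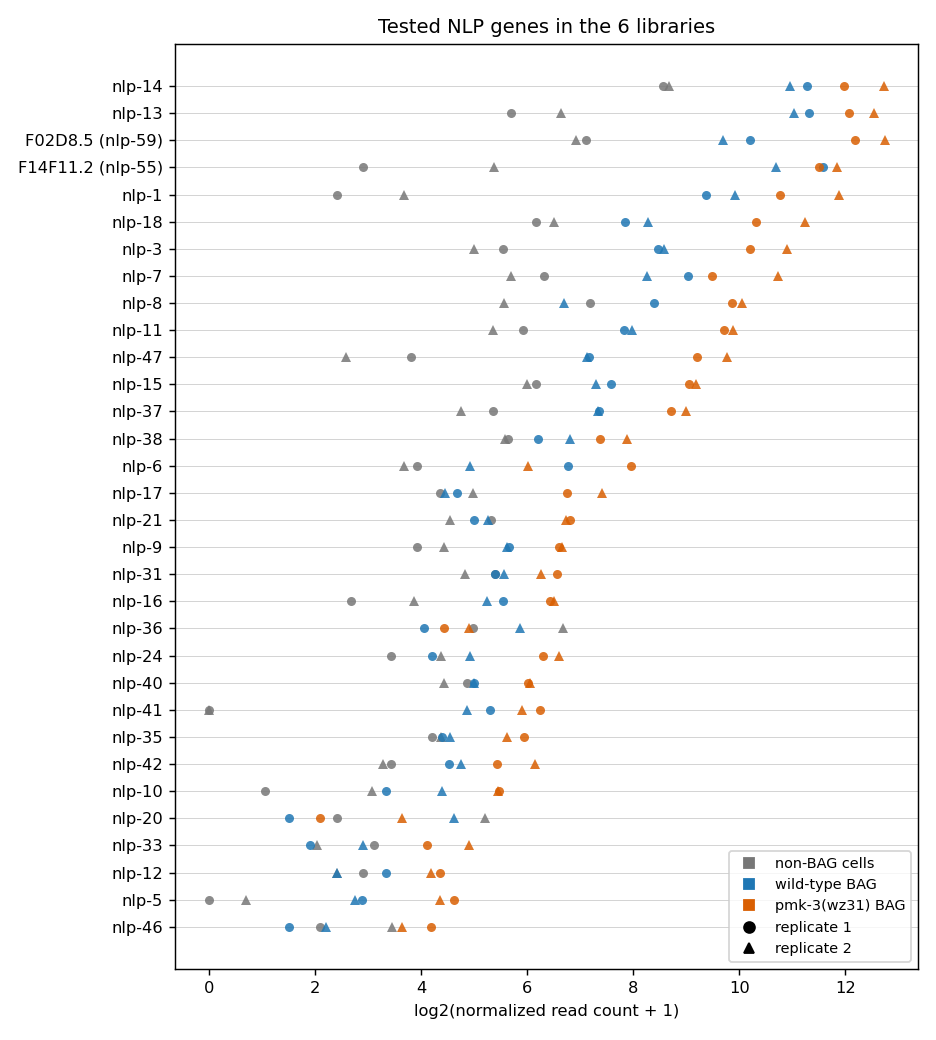
log2(normalized read count + 1) of the 32 tested NLP genes in every library, ordered by overall level; colour is the group and marker shape the replicate. For most genes the orange mutant points lie to the right of the blue wild-type BAG points, while those of F14F11.2, nlp-6, nlp-20 and nlp-36 overlap with them.

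The first comparison asks which NLP precursors are enriched in BAG neurons over the other cells of the cultures. In wild-type BAG neurons 15 of the 32 tested members rose, 0 fell and 17 did not pass (46.9% rose; over all tested genes 10.2% rose and 4.01% fell; limma on log2(value + 1), adjusted over all tested genes). No member was lower at an unadjusted p under 0.05, and edgeR and DESeq2 also called 15 higher and 0 lower. The median log2 change of the 32 was 1.60, and that of all tested genes was −0.04; placing nlp-41, which had no non-BAG reads, at its lower bound leaves the former as it is. Both wild-type BAG libraries lay above both non-BAG libraries for 22 of the 32, where 28.4% of all tested genes did so. Of the 13 members that passed the filter only through BAG libraries 5 rose, and of the other 19, 10 rose with a median of 1.47. More mRNA here can mean a larger share of cells that express a gene or more RNA in each cell, and bulk libraries cannot tell these apart.

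The MSFamide group, nlp-1, nlp-7 and nlp-13, named for related amidated peptides, rose in all 3 of its members. Olfactory AWC neurons release NLP-1, which acts on the receptor NPR-11 of interneurons. Its transcript stood at 4.33 and 11.8 normalized reads in non-BAG cells and at 659.6 and 971 in wild-type BAG neurons, a 101-fold ratio of means. Both BAG libraries were far above both non-BAG libraries (log2 change 6.60 ± 0.49 SE, limma adjusted p = 3.71e-05). The transcript of nlp-13 stood at 50.9 and 99.2 in the non-BAG cells and at 2558 and 2087 in wild-type BAG neurons (log2 change 5.00 ± 0.35, limma adjusted p = 2.76e-05). That of nlp-7, whose peptides inhibit egg laying, stood at 79.1 and 50.8 and at 524 and 305 (log2 change 2.64 ± 0.45, limma adjusted p = 0.00404). Neither gene had overlapping groups.

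The 2 members listed by sequence name were both among the abundant BAG transcripts. F14F11.2 had the largest log2 change of the tested members in this comparison, 7.0 ± 0.66 (limma adjusted p = 0.000133), from 6.50 and 40.3 in non-BAG cells to 3063 and 1650 in wild-type BAG neurons. Its non-BAG libraries were far apart, and neither came near the BAG values. F02D8.5 stood at 136 and 120.3 in the non-BAG cells and at 1172 and 824 in wild-type BAG neurons, again without overlap (log2 change 2.93 ± 0.30, limma adjusted p = 0.000214).

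Both orcokinin-like precursors, nlp-14 and nlp-15, rose. nlp-14 was already the leading NLP transcript of non-BAG cells at 379 and 409.8, and reached 2472 and 2002 in wild-type BAG neurons (log2 change 2.49 ± 0.31, limma adjusted p = 0.000619). For nlp-15 the values were 70.4 and 63.2 in non-BAG cells and 191 and 156 in wild-type BAG neurons, a smaller but non-overlapping difference (log2 change 1.36 ± 0.29, limma adjusted p = 0.0134). The allatostatin-like pair nlp-5 and nlp-6 gave a median of 2.26, and neither passed by limma or edgeR, although both were higher at an unadjusted p under 0.05 and DESeq2 called nlp-6: nlp-6 stood at 14.1 and 11.8 in the non-BAG cells and at 107.8 and 29.4 in wild-type BAG neurons, the widest spread between wild-type BAG libraries of any member with a mean of at least 50.

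Among 4 members with named relatives in other animals, nlp-47 and nlp-37 rose, and nlp-38 and nlp-12 did not pass. nlp-47 encodes a relative of adipokinetic and gonadotropin-releasing hormones that acts on GNRR-1, and stood at 12.995 and 4.96 in the non-BAG cells and at 143 and 139 in wild-type BAG neurons (log2 change 3.96 ± 0.45, limma adjusted p = 0.000387). nlp-37 encodes the pigment dispersing factor PDF-2, and stood at 40.1 and 26.04 and at 163 and 162 (log2 change 2.29 ± 0.34, limma adjusted p = 0.00174). Both had close agreement between their BAG libraries. nlp-38, of the myoinhibitory peptide type, had a log2 change of 0.89 ± 0.37 (limma adjusted p = 0.148). nlp-12, the cholecystokinin-like precursor of the DVA interneuron, stood at 9.14 and 4.31 in wild-type BAG neurons and at 6.50 and 4.34 in the non-BAG cells, with overlap.

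A list of 5 members, nlp-8, nlp-11, nlp-14, nlp-22 and nlp-24, was drawn up as sleep-associated. The sources used here do not give a part in sleep for nlp-24. Of the 5 listed, 4 were tested and 2 rose. One was nlp-14, which acts in the ALA neuron. The other was nlp-11, a peptide gene of the sleep neuron RIS, with 59.6 and 39.7 in non-BAG cells and 226 and 251 in wild-type BAG neurons (log2 change 2.27 ± 0.31, limma adjusted p = 0.00113). nlp-8, also expressed in ALA, overlapped between groups at 145 and 46.5 against 337 and 102 and did not pass (log2 change 1.16 ± 0.61, limma adjusted p = 0.25). nlp-24, with opioid-like peptides that stimulate feeding in starved animals, overlapped too, at 9.75 and 19.8 against 17.4 and 29.4 (limma adjusted p = 0.463). Its exons share bases with glb-15 on the other strand, and the sources used here do not say whether the counting used strand, so its counts are uncertain.

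nlp-3, whose peptides stimulate egg laying and are released by the HSN motor neurons, rose from 45.5 and 30.996 to 351 and 382 (log2 change 3.25 ± 0.34, limma adjusted p = 0.000222). nlp-18 rose from 70.4 and 89.3 to 228 and 312 (log2 change 1.74 ± 0.36, limma adjusted p = 0.0108), whereas nlp-20, grouped with it for its related peptides, was low with values from 1.83 to 36 over the 4 libraries. nlp-16 rose by 2.11 ± 0.52 and nlp-9 by 1.47 ± 0.41 (limma adjusted p = 0.0247 and 0.0442). nlp-21, grouped with nlp-9, had a log2 change of 0.20 ± 0.43 and did not pass.

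nlp-41 was at 0 in both non-BAG libraries and at 38.4 and 28.01 in wild-type BAG neurons. Set against a floor of 3 reads in each non-BAG library, it was at least 12.99-fold higher in wild-type BAG neurons and at least 26.04-fold higher in mutant BAG neurons. Its exons share bases with mog-4 on the other strand, which makes its counts uncertain. The mog-4 gene stood at 318 and 457 in the non-BAG libraries, and its part in the nlp-41 counts was not tested.

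The epidermal antimicrobial and glycine-rich group did not rise. Of its 10 members 3 were tested, nlp-24, nlp-31 and nlp-33, and 0 rose or fell (limma; none at an unadjusted p under 0.05, and none by edgeR or DESeq2). Summed over the 10, the values were 76.9 and 84.9 in non-BAG cells and 66.7 and 93.4 in wild-type BAG neurons. Of 10 markers of the hypodermis, the epidermal tissue, 7 were tested and 0 passed (limma; none at an unadjusted p under 0.05 or by edgeR or DESeq2), and their sums were 2191 and 1467 in non-BAG cells and 1170 and 2381 in wild-type BAG neurons. Tissue genes outside the nervous system were also represented by nlp-40, an intestinal peptide gene that acts through AEX-2 in the defecation cycle, at 28.2 and 20.5 in the non-BAG cells and 31.1 and 30.9 in wild-type BAG neurons, a difference that did not pass (log2 change 0.35 ± 0.43, limma adjusted p = 0.649). nlp-36, the third by level per kilobase in non-BAG cells, ranged from 30.3 to 102 there and from 15.5 to 57.5 in wild-type BAG neurons, and its counts are uncertain because the far more abundant dars-1 lies on the other strand.

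Non-BAG cells are a mixture that holds other neurons. Pan-neuronal markers rose in 6 of 7, with sums of 5679 and 5987 in non-BAG cells and 24912 and 23800 in wild-type BAG neurons. Markers of other neuron classes rose in 3 of 4 for cholinergic, 1 of 3 for GABA and 1 of 6 for monoamine neurons, with none of those genes at 0 in any library. Their sums were 646 and 275 against 597 and 496 for cholinergic, 432 and 283 against 526 and 300.2 for GABA and 139 and 208 against 354 and 300.2 for monoamine neurons. Of the touch neuron markers 0 of 5 rose and 1, mec-3, fell by limma and DESeq2 (2 lower at an unadjusted p under 0.05, 0 by edgeR), with sums of 439.7 and 366 against 173 and 215. For other amphid sensory neurons 0 of 6 tested markers rose or fell (limma, edgeR and DESeq2; none at an unadjusted p under 0.05), with sums of 514 and 248 against 479.6 and 274, and of the 5 markers of URX, AQR and PQR neurons 1 rose, gcy-37, with sums of 296 and 464 against 981 and 942. The part of other neurons in the NLP values was not tested. Of the 15 calls, 11 held when any 1 library was left out of the fit. The exceptions were nlp-9 and nlp-16, lost in 5 of the 6 such fits (all but the one without non-BAG replicate 2; limma adjusted p = 0.103 to 0.162 and 0.0681 to 0.126), nlp-15, lost without wild-type BAG replicate 1 (0.0903), and nlp-18, lost without wild-type BAG replicate 2 (0.0649); nlp-6 was gained without wild-type BAG replicate 2 (0.0364) and nlp-10 without non-BAG replicate 2 (0.0386).

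The second comparison asks which NLP transcripts differ between mutant and wild-type BAG neurons. The 2 groups came from different strains, so genotype cannot be told apart from a difference in culture or sort. Here 6 of the 32 tested members rose, 0 fell and 26 did not pass (18.8% rose; over all tested genes 0.486% rose and 0.352% fell; limma). No member was lower at an unadjusted p under 0.05, and 22 were higher at that level. The share of all tested genes at that unadjusted level was not counted. By edgeR and DESeq2 7 and 15 members were called higher and 0 lower, with 0.521% and 2.53% of all tested genes called higher. The median log2 change was 1.48 over the 32 and 0.02 over all tested genes, and 30 of the 32 changes were above 0. Both mutant libraries lay above both wild-type BAG libraries for 28 of the 32 and below them for 0, where 26% of all tested genes lay above. Without the 5 members that passed the filter only through the mutant libraries, 23 of 27 lay above and the median was 1.31. Over all 46 members, tested or not, 35 lay above and 0 below. This count takes in the 14 members too low to test, and the matching share over all genes without the filter was not counted. Both comparisons use the wild-type BAG libraries, so the 2 sets of changes are given side by side without being related to each other.

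**Figure D3:**
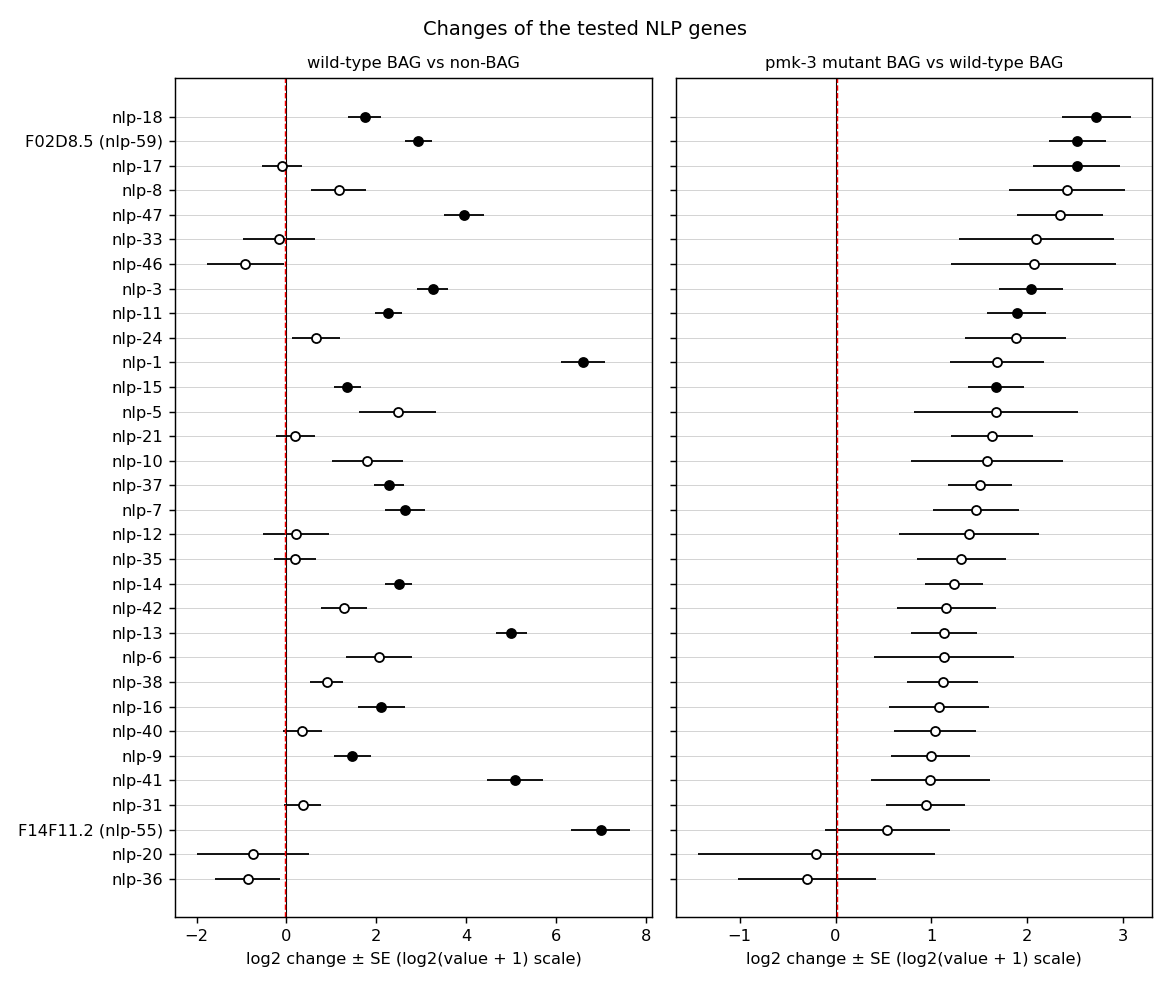
log2 change ± SE of each tested NLP gene on the log2(value + 1) scale, left for wild-type BAG against non-BAG and right for mutant BAG against wild-type BAG, ordered by the right panel; filled points passed limma's adjusted p threshold of 0.05 and the dashed line is the median of all tested genes. In the right panel 30 of 32 points lie above 0 and 6 are filled; in the left panel 15 are filled.

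The largest rise belonged to nlp-18, with 228 and 312 normalized reads in the wild-type neurons and 1282 and 2436 in the mutant neurons. The mutant libraries were 6.88 times the wild-type BAG mean on average, and even the lower mutant library was well clear of the higher wild-type one (log2 change 2.72 ± 0.36, limma adjusted p = 0.0132). nlp-20, grouped with nlp-18, stayed low at 3.23 and 11.5 against 1.83 and 23.7 and did not pass.

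F02D8.5 stood at 1172 and 824 in wild-type BAG neurons and at 4654 and 6865 in mutant BAG neurons. It moved from the fourth to the first place per kilobase among the members, with no overlap between the groups (log2 change 2.52 ± 0.30, limma adjusted p = 0.00984). F14F11.2, the leader in wild-type BAG neurons, stood at 3063 and 1650 against 2926 and 3658 in the mutant. Its groups overlapped and it did not pass (log2 change 0.54 ± 0.66, limma adjusted p = 0.737).

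nlp-3 stood at 351 and 382 in wild-type BAG neurons and at 1182 and 1924 in mutant BAG neurons (log2 change 2.04 ± 0.34, limma adjusted p = 0.0301). nlp-11 stood at 226 and 251 and at 834 and 943 (log2 change 1.89 ± 0.31, limma adjusted p = 0.0301). nlp-15 stood at 191 and 156 and at 529 and 579.6 (log2 change 1.68 ± 0.29, limma adjusted p = 0.0398). In each of these 3 genes both mutant libraries lay above both wild-type BAG libraries by more than the spread within either group.

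nlp-17 differed from the other 5 in that it was not enriched in wild-type BAG neurons. It stood at 19.5 and 30.4 in the non-BAG cells, 24.7 and 20.8 in the wild-type neurons and 107 and 169 in the mutant neurons. The non-BAG and wild-type BAG libraries overlapped, with a log2 change of −0.10 ± 0.45, and the mutant libraries stood above all 4 (log2 change against wild-type BAG 2.52 ± 0.45, limma adjusted p = 0.044). Its exons share bases with seld-1 on the other strand, so its counts are uncertain.

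Several abundant members had changes of similar size that did not pass. nlp-47 stood at 143 and 139 in the wild-type neurons and 589.7 and 875 in the mutant neurons (log2 change 2.34 ± 0.45, limma adjusted p = 0.0507). nlp-8 stood at 337 and 102 against 934 and 1061 (log2 change 2.42 ± 0.61, limma adjusted p = 0.0998). The wild-type BAG libraries of nlp-8 differed more than 3-fold from each other, whereas those of nlp-47 were nearly equal, and neither gene's groups overlapped. nlp-37 stood at 163 and 162 against 420.4 and 509 (log2 change 1.51 ± 0.34, limma adjusted p = 0.073).

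The MSFamide group, which rose as a whole in wild-type BAG neurons, had 0 of 3 members past the threshold here by limma and edgeR, although all 3 were higher at an unadjusted p under 0.05 and DESeq2 called all 3. nlp-1 stood at 659.6 and 971 against 1756 and 3776 (log2 change 1.68 ± 0.49, limma adjusted p = 0.137), nlp-13 at 2558 and 2087 against 4328 and 5942 (1.13 ± 0.35, adjusted p = 0.161) and nlp-7 at 524 and 305 against 719 and 1692 (1.46 ± 0.45, adjusted p = 0.161). The mutant libraries of nlp-1 and nlp-7 differed by over 2-fold from each other. nlp-14, with 2472 and 2002 against 4029.5 and 6838, gave a log2 change of 1.24 ± 0.31 (limma adjusted p = 0.0942). Among the 25 members with a mutant mean of at least 50, 20 were higher in mutant replicate 2 than in mutant replicate 1, with a median difference between the 2 libraries of 1.27-fold.

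The epidermal antimicrobial and glycine-rich group had 0 of 3 tested members past the threshold by limma and edgeR and 1 by DESeq2, all 3 were higher at an unadjusted p under 0.05, and the sums over its 10 members were 66.7 and 93.4 in the wild-type neurons and 211 and 234.6 in the mutant neurons. nlp-24 stood at 17.4 and 29.4 against 77.6 and 95.4 (log2 change 1.88 ± 0.53, limma adjusted p = 0.127). nlp-31, an antimicrobial gene of the epidermis, stood at 41.1 and 45.97 against 93.8 and 75.9 (0.94 ± 0.41, limma adjusted p = 0.305). The hypodermis markers summed to 1170 and 2381 in the wild-type neurons and 2038 and 1757 in the mutant neurons, with 0 of 7 past the threshold by limma, edgeR or DESeq2 (1 higher at an unadjusted p under 0.05) and overlapping groups. Only nlp-20 and nlp-36 had changes below 0, −0.20 ± 1.24 and −0.30 ± 0.72, and both were far from the threshold (limma adjusted p = 0.956 and 0.882).

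None of the 6 calls held in every fit that left out a library. Calls were lost without a BAG library and gained without a non-BAG library, over the members and over all tested genes alike. The median log2 change of the members was 1.51 and 1.46 without wild-type BAG replicate 1 and 2. It was 1.58 and 1.47 without mutant replicate 1 and 2. Over all tested genes the medians of these 4 fits were 0.01, 0.01, 0.02 and 0.04. For F02D8.5 the adjusted p was 0.0728, 0.14 and 0.35 without wild-type BAG replicate 2 and mutant replicates 1 and 2, and for the other 5 it ran from 0.0635 (nlp-18 without wild-type BAG replicate 2) to 0.527 (nlp-17 without mutant replicate 2) over the 4 fits that leave out a BAG library. The members gained without either non-BAG library were nlp-1, nlp-8, nlp-13, nlp-14, nlp-37 and nlp-47 (adjusted p = 0.00526 to 0.0479), and nlp-21 without non-BAG replicate 2 (0.0438). For all 6 called members both mutant libraries lay above both wild-type BAG libraries, so no fit without a library could have turned their direction.

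BAG identity and other neuron classes were measured beside these changes. The 13 BAG markers had a median log2 change of 0.52 between mutant and wild-type BAG neurons, and the 2 that passed, flp-10 and flp-19, are themselves FLP neuropeptide genes (log2 change 2.17 and 2.03, limma adjusted p = 0.0275 and 0.0301). The 7 pan-neuronal markers had a median of 0.37 with 0 past the threshold by limma, edgeR or DESeq2 (1 higher at an unadjusted p under 0.05), and sums of 24912 and 23800 against 29407 and 28833. Marker sums of other neurons were higher in both mutant libraries for cholinergic (597 and 496 against 1037 and 815, median 0.78 over 4), GABA (526 and 300.2 against 1004 and 681, median 1.07 over 3), monoamine (354 and 300.2 against 513 and 484, median 0.64 over 6) and other amphid sensory neurons (480 and 274 against 769.7 and 562, median 0.94 over 6 tested of 10). By limma and edgeR 0 of these genes passed and by DESeq2 1 cholinergic and 1 amphid marker rose, while 2 cholinergic, 1 GABA, 0 monoamine and 3 amphid markers were higher at an unadjusted p under 0.05. Of the 10 amphid markers 1 or 2 were at 0 in each library. The touch neuron markers summed to 173 and 215 against 258 and 253 (median 0.51 over 5), with 0 past the threshold by limma, edgeR or DESeq2 and none at an unadjusted p under 0.05. The markers of URX, AQR and PQR neurons summed to 981 and 942 against 331 and 251, and 1 of the 5, gcy-37, fell from 826 and 677 to 61.4 and 96.6 (log2 change −3.26 ± 0.34, limma adjusted p = 0.00906; also lower by edgeR and DESeq2), while the median was 0.70. The part of other neurons in the mutant NLP values was not tested.

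The third set of values places mutant BAG neurons against non-BAG cells, which differ in both genotype and cell type. Of the 32 tested members 27 rose, 0 fell and 5 (nlp-12, nlp-20, nlp-33, nlp-36 and nlp-46) did not pass (84.4% rose; over all tested genes 16.2% rose and 9.34% fell; limma). None was lower at an unadjusted p under 0.05, edgeR called 27 higher and DESeq2 24, and both called 0 lower. The median log2 change was 3.19, with −0.09 over all tested genes. Both mutant libraries lay above both non-BAG libraries for 30 of the 32 and below them for 1, nlp-36, where 32.1% of all tested genes lay above and 34% below. Of the 27 members that did not depend on the mutant libraries to pass the filter, 25 rose. Apart from nlp-41, given above as a bound, the largest changes were those of nlp-1 (8.29 ± 0.49), F14F11.2 (7.54 ± 0.66), nlp-47 (6.30 ± 0.45), nlp-13 (6.14 ± 0.35), F02D8.5 (5.45 ± 0.30), nlp-3 (5.29 ± 0.34) and nlp-18 (4.46 ± 0.36), with limma adjusted p from 4.85e-06 to 5.1e-05. Members that passed here and in neither of the other comparisons included nlp-8 (3.58 ± 0.61, limma adjusted p = 0.00258), nlp-6 (3.18 ± 0.73, 0.0119), nlp-24 (2.54 ± 0.53, 0.00724) and nlp-38 (2.01 ± 0.37, 0.00394).

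Of these 27 calls, 16 held when any 1 library was left out. Without mutant replicate 2 the count was 17, with 10 lost (nlp-5, nlp-10, nlp-17, nlp-21, nlp-24, nlp-31, nlp-35, nlp-38, nlp-40 and nlp-42; limma adjusted p = 0.0631 to 0.19). Without mutant replicate 1 it was 19, with 8 lost (nlp-5, nlp-6, nlp-10, nlp-21, nlp-24, nlp-31, nlp-35 and nlp-40; 0.054 to 0.223). nlp-31, nlp-35 and nlp-40 were also lost without non-BAG replicate 2 or without either wild-type BAG library (0.0529 to 0.151), and nlp-35 without non-BAG replicate 1 (0.108).

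The enzymes that turn precursors into peptides were followed as a list of 11 genes. In wild-type BAG neurons 6 of the 11 rose and 0 fell (limma; by edgeR and DESeq2 also 6 and 0, with 1 lower at an unadjusted p under 0.05), against 10.2% of all tested genes higher. They were aex-5, a convertase (log2 change 5.23 ± 0.31), egl-3, the main neuronal convertase of the PC2 type (4.05 ± 0.35), egl-21, the carboxypeptidase E (3.35 ± 0.27), pghm-1 and pgal-1, which carry out the steps of amidation (3.21 ± 0.30 and 2.80 ± 0.32), and sbt-1, a chaperone of the convertase (2.85 ± 0.29). The amidating enzyme pamn-1 and the kexin-like convertases kpc-1 and bli-4 did not pass, with log2 changes of 0.48 ± 0.34, 0.01 ± 0.38 and −0.70 ± 0.27. aex-5 and pgal-1 share exon bases with F32A7.5 and F21F3.6 on the other strand, so their counts are uncertain.

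**Figure D4:**
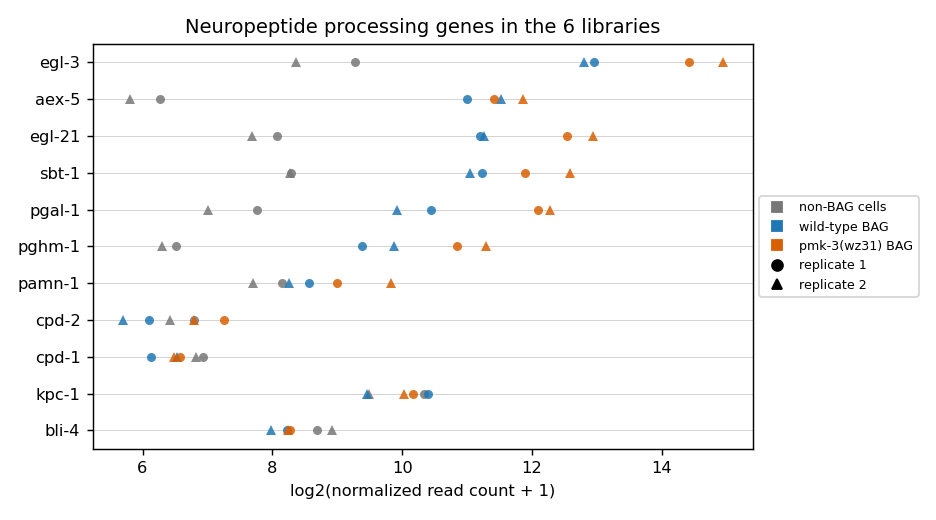
log2(normalized read count + 1) of 11 neuropeptide processing genes in every library; colour is the group and marker shape the replicate. For egl-3 the wild-type BAG points stand at 7889 and 7104 normalized reads and the mutant BAG points at 21802 and 31346, while kpc-1 has no separation of the 3 groups.

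In mutant against wild-type BAG neurons 2 of the 11 rose, pgal-1 and egl-21, and 0 fell (limma, none lower at an unadjusted p under 0.05). The calls by edgeR were 2 higher and by DESeq2 5, both 0 lower. Over all tested genes 0.486% rose and 0.352% fell by limma. pgal-1 stood at 1389 and 970.3 in the wild-type neurons and 4351 and 4965.5 in the mutant neurons (log2 change 2.00 ± 0.32, limma adjusted p = 0.0301). egl-21 stood at 2337 and 2451 against 5949 and 7854 (1.51 ± 0.27, limma adjusted p = 0.0425). egl-3, at 7889 and 7104 against 21802 and 31346, did not pass (1.80 ± 0.35, limma adjusted p = 0.0533), nor did pghm-1 at 664 and 934 against 1834 and 2499 (1.44 ± 0.30, 0.0623). Summed over the 11 genes, the values were 3799 and 2707 in non-BAG cells, 18880 and 17913 in the wild-type neurons and 42661 and 58996 in the mutant neurons, again in 3 ranges without overlap. Both calls were lost without any 1 of the BAG libraries (limma adjusted p = 0.0864 to 0.527), and without either non-BAG library egl-3 and pghm-1 were gained (0.00739 to 0.024).

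Genes of dense-core vesicles were followed as a list of 10, of which 7 rose in wild-type BAG neurons against non-BAG cells and 0 fell (limma, none lower at an unadjusted p under 0.05, edgeR and DESeq2 also 7 and 0). Over all tested genes 10.2% rose and 4.01% fell. The 7 included tbc-8 and ric-19, which act in vesicle maturation, unc-31, which encodes the release factor CAPS, and ida-1, which encodes a vesicle membrane protein of the IA-2 type. The calls of cccp-1 and T19D7.4, also among the 7, did not hold in every fit without 1 library. Their log2 changes ran from 1.28 to 1.72 and from 1.02 to 2.00 over those fits. In mutant against wild-type BAG neurons 0 of the 10 passed by limma or edgeR and 2 rose by DESeq2, 2 were higher and 1 lower at an unadjusted p under 0.05, and the median log2 change was −0.01. unc-31 stood at 2897 and 2624 in wild-type BAG neurons and at 2471 and 2403 in mutant BAG neurons (−0.18 ± 0.24, limma adjusted p = 0.77), and ida-1 at 6739 and 5995 against 10419 and 14370 (0.94 ± 0.27, 0.137). The difference between the medians of the precursor, enzyme and vesicle lists was not tested.

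Receptors reported for NLP peptides were present as well. Of 15 receptors, 6 rose in wild-type BAG neurons, where 10.2% of all tested genes rose and 4.01% fell (limma). These 6 were aex-2, the receptor for NLP-40 (4.62 ± 0.41), sprr-2 (2.81 ± 0.40), pdfr-1, the receptor for pigment dispersing factor (2.21 ± 0.28), npr-35 (2.10 ± 0.45), gnrr-6 (1.77 ± 0.38) and seb-3 (1.40 ± 0.31). By limma 1 fell, the gene listed as nmur-4 and now called trhr-1 (−1.95 ± 0.55, adjusted p = 0.0457; DESeq2 also called it and edgeR did not), a call lost without any 1 of the 6 libraries (0.063 to 0.174) and uncertain for its overlap with C30F12.5 on the other strand. The calls of gnrr-6, npr-35 and seb-3 were lost without wild-type BAG replicate 1 (limma adjusted p = 0.0501, 0.105 and 0.107), and that of gnrr-6 also without wild-type BAG replicate 2 (0.0729). In mutant against wild-type BAG neurons 0 of 15 passed by limma or edgeR and 4 rose by DESeq2, 9 were higher and 0 lower at an unadjusted p under 0.05, and the median log2 change was 1.22. aex-2 was the nearest of the 6, at 336 and 482 against 1352 and 1611 (1.87 ± 0.41, limma adjusted p = 0.0709), and passed without either non-BAG library (0.0114 and 0.00839).

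The 29 genes outside the member list that carry nlp names only in the current annotation were followed beside the members. Of these 25 were tested, and in wild-type BAG neurons 8 rose and 0 fell (32%, limma, none lower at an unadjusted p under 0.05, edgeR and DESeq2 also 8 and 0). Among the 8, F08G12.8, F41G3.1, T07C12.15 and T24F1.5 were under 10 in both non-BAG libraries. They passed the filter only through BAG libraries, which favours a rise. Over all tested genes 10.2% rose and 4.01% fell. In mutant against wild-type BAG neurons 1 rose, T04C12.3 (now nlp-80, log2 change 2.01, limma adjusted p = 0.0301), and 0 fell, with a median of 1.38. None was lower at an unadjusted p under 0.05, and edgeR called 1 and DESeq2 4 higher, both 0 lower. Over all tested genes 0.486% rose and 0.352% fell by limma. Their summed values were 753 and 606 in non-BAG cells, 1809 and 1523 in the wild-type neurons and 4501 and 4399.7 in the mutant neurons. In the BAG libraries these sums were below those of the 46 members. That is no check on the choice of members, which was made with earlier results known and took in the abundant F14F11.2 and F02D8.5. Whether the 2 lists differ was not tested.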

How the data were processed

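RNA sequencing of 6 sorted-cell libraries gave 1 deposited table. Its values are normalized read counts (a signal per gene), and the submitters' processing notes name the tools STAR, HTSeq and DESeq2. Genome build and strand setting were not given in the sources used here, and no coordinates are printed. The deposited values were whole multiples of the value of 1 read (100% of them within 0.01 of a read), which gave back 6181113 to 8596169 reads. Limma 3.58.1 in R 4.3.3 was fitted with a mean-variance trend to log2(value + 1) of the 14211 genes that reached a value of 10 in 2 or more libraries, all 3 groups in 1 fit (3 residual degrees of freedom, two-sided, Benjamini-Hochberg adjusted p under 0.05); this scale understates changes of low genes. Means are given ± SD (n = 2) and changes ± SE. Counts at an unadjusted p under 0.05 have no share of all tested genes beside them, since that share was not counted.

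The members and all lists were chosen with earlier results of these data known. Members past the threshold are named, and others where they are among the 10 highest of a group or belong to a list. Current names (43655 of 47063 IDs matched), exon lengths and exon overlaps came from the Ensembl annotation of a reference that may differ from the authors'. A gene is called uncertain where it shares exon bases with another gene and strand could not be checked. This also holds for sbt-1, kpc-1, bli-4, seb-3, npr-35 and the vesicle gene T19D7.4, whose partners had lower levels than they did, and they are called so only here. Floors cover counting error only. The alternatives tried were other pseudocounts (0.5 and 8), other filters (none, or a mean of 50), TMM scaling, a replicate block, a fit without the trend, a fit of just the 2 groups compared, edgeR 4.0.16 and DESeq2 1.42.0 on recovered reads, and leaving out each library; the remaining library of such a group was taken to vary like the other groups. Precursor sequences were not analysed here.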

Additional observations from a re-analysis of the deposited data

How the results depend on the processing

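Over 16 alternatives the count of NLP members that rose in wild-type BAG neurons kept within 1.5 times of 15, with 12 to 16 over the fits without 1 library. For mutant BAG against non-BAG (27) the fits without 1 library gave 17 to 26, and the other alternatives 18 to 27. The count for mutant against wild-type BAG (6) was the least stable: 12 with the replicate number as a block, 14 with only the 2 groups in the fit, 15 with DESeq2 and 0 with no trend (26 of the 32 at an unadjusted p under 0.05, all higher), and 0 to 13 without 1 library. All 6 were among the calls under the block, with 2 groups and by DESeq2 and edgeR, and the other settings gave 4 to 7. Over all tested genes the share that rose was 0.486% in the main fit, 2.41% with the block and 2.63% with only the 2 groups. It was 2.53% by DESeq2 and 0% with no trend, so these moves in the count were not confined to the members. The cause of these differences was not tested, and the fits without a library also have fewer samples.

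The summed level in non-BAG cells was 1407.5 with TMM scaling and 1066.7 without nlp-14, and in wild-type BAG neurons 9067.8 without nlp-14. The other sums with TMM scaling or without nlp-14 moved by less than 1 SD. Without 1 library the sums ran from 1433.8 to 1488.4, from 9958.8 to 12651 and from 25603 to 38502. These are the values of the remaining library, and with 2 libraries such a move is always under 1 SD, so it is no check. TMM scaling moved the median log2 change of all genes in wild-type BAG against non-BAG from −0.04 to 0.07 and that of the members from 1.60 to 1.71.

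Of 3200 values for single genes, 2956 stayed on their side of the threshold, 154 lost it, 90 gained it and none turned direction while called. Where the groups of a gene do not overlap, leaving out a library could not have turned its direction. The labels do not say what replicate numbers 1 and 2 share across groups. The deviations of same-numbered libraries correlated at 0.46 (non-BAG and wild-type BAG), 0.004 (non-BAG and mutant) and 0.046 (wild-type and mutant BAG), and the block is given only here. It gave 16 and 27 calls in the other comparisons. With 2 libraries a group and 14 members too low to test, changes in the low members were not detectable at this depth.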
